A study of Mus musculus with 40 samples.

Results

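The 10 genes described here encode enzymes that make or break down prostaglandins and receptors for prostaglandin E. They were Ptgs1, Ptgs2, Ptges, Ptgis, Hpgds, Tbxas1, Hpgd, Ptger2, Ptger3 and Ptger4, listed by symbol and matched to Ensembl identifiers, out of 45706 genes in the deposited tables. RNA-seq covered 40 libraries in 10 groups of 4, each from cells sorted by flow cytometry. Neutrophils (Ly6C-low, Ly6G+) and monocytes (Ly6C-high, Ly6G-) came from colon tumors and from blood of the same kind of mice, epithelial (EpCAM+) and stromal (CD45- EpCAM-) cells came from colon tumors, and the same blood and colon populations came from healthy mice.

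The 6 groups from tumor-bearing mice carried Cdx2CreERT2 with Apc fl/fl on a strain listed as C57Bl6/Sv129, with a number that rises from sample to sample, and had received Tamoxifen once, by intraperitoneal injection of 25 mg/kg at an age of 8 to 10 weeks. Cdx2CreERT2 is a Tamoxifen-activated Cre recombinase driven by the promoter of Cdx2, an intestinal epithelial transcription factor, and it deletes Apc in the epithelium. The 4 groups from healthy mice were C57Bl6 without transgene or Tamoxifen, so that in every comparison of tumor-bearing with healthy mice the tumor, the strain, the transgene and Tamoxifen cannot be told apart. Tissue was digested with collagenase and Dispase and blood was not, so that in the comparisons of tumor with blood the site and the digestion cannot be told apart. The titles of 4 libraries name a pool of mice, and the others name a single mouse. The time from Tamoxifen to cell sorting is not given for these libraries in the sources used here.

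Prostaglandins are lipid signals made from arachidonic acid. The cyclooxygenases Ptgs1, which is present in many resting cells, and Ptgs2, which is induced by inflammatory stimuli, form prostaglandin H2, and terminal synthases turn this into prostaglandin E2 (Ptges), prostacyclin (Ptgis), prostaglandin D2 (Hpgds) or thromboxane A2 (Tbxas1). Hpgd oxidizes prostaglandin E2 to an inactive product, and Ptger2, Ptger3 and Ptger4 encode the receptors EP2, EP3 and EP4, of which EP2 and EP4 raise cyclic AMP and EP3 commonly lowers it. In the intestine, prostaglandin E2 is known to promote adenoma growth, and Hpgd is known to be lost in colorectal tumors.

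The promoters of Ptgs2, Ptges and Hpgd are shown because the results below turn on the inducible cyclooxygenase, the synthase next to it and the enzyme that opposes them. RefSeq sequences of build GRCm38.p6 were found for 9 of the 10 genes, and the 250 bases before the annotated start are given 5′ to 3′ on the coding strand. Ptgs2 lies on the plus strand (chr1:150099781-150100030), Ptges on the minus strand (chr2:30903298-30903547) and Hpgd on the plus strand (chr8:56294302-56294551). The RefSeq start of Ptges lies inside the Ensembl gene given below, which extends further upstream, to chr2:30929863. Capitals mark matches to 8 short motifs searched on both strands.
Ptgs2: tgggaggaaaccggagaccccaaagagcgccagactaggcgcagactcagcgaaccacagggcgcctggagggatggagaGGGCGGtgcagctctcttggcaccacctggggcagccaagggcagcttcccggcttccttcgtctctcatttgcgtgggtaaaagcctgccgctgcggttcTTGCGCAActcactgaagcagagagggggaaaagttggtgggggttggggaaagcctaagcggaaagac
Ptges: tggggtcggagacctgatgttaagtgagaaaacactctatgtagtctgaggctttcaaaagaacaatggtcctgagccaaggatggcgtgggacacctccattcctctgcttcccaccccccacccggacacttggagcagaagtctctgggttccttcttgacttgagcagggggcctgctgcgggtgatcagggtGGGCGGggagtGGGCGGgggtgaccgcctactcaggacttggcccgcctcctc
Hpgd: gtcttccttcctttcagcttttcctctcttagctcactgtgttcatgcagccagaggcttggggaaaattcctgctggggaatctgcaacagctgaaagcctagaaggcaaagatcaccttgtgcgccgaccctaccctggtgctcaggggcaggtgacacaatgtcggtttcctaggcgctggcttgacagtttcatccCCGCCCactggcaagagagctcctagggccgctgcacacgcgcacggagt
In the Ptgs2 promoter the capitals mark TTGCGCAA, a palindrome bound by C/EBP factors, which starts 69 bases before the annotated start and occurs in 0.164% of 32851 promoters of the same length. They also mark a GC box, GGGCGG, which occurs in 32.7% of promoters and is marked in the Ptges and Hpgd sequences too. The other motifs were TGACGTCA (in 1.55% of promoters), its short form TGACG (17.8%), CACGTG (6.02%), TGANTCA (6.75%), TATAAA (12.4%) and the NF-κB consensus (7.25%). TGACG is contained in TGACGTCA, and the motifs were chosen after the Ptgs2 sequence had been seen. These matches are a description of the letters and not of binding.

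In build GRCm38 (mm10), Ptgs2 (ENSMUSG00000032487) lies at chr1:150100031-150108227, Ptgs1 (ENSMUSG00000047250) at chr2:36230426-36252272, Ptges (ENSMUSG00000050737) at chr2:30889471-30929863 and Ptgis (ENSMUSG00000017969) at chr2:167191805-167240604. Hpgds (ENSMUSG00000029919) lies at chr6:65117293-65144908, Tbxas1 (ENSMUSG00000029925) at chr6:38875404-39084585 and Hpgd (ENSMUSG00000031613) at chr8:56294585-56321043. The receptors lie at chr14:44988195-45003820 (Ptger2, ENSMUSG00000037759), chr3:157566892-157645888 (Ptger3, ENSMUSG00000040016) and chr15:5206661-5244187 (Ptger4, ENSMUSG00000039942). Exons of Ptgs1, Ptgis, Tbxas1, Ptger2 and Ptger4 share bases with genes on the opposite strand, the most being 1015 of 6648 exonic bases of Ptger4 with the pseudogene Gm15937, and reads there cannot be assigned without strand, so the values of these 5 genes are uncertain to that extent.

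Total counts on genes were 10717873 to 38002939 per library. Some libraries stood apart in marker transcripts, whose level is given as the median over a list of marker genes, each as a percentage of its mean in the sorted cells it marks. Epithelial markers reached 76.8% of the level in sorted tumor epithelium in tumor neutrophil replicate 1, against 4.95% to 17.7% in the other tumor neutrophils, and neutrophil markers in that library were at 8.38% of the level in blood neutrophils of tumor-bearing mice, against 45.7% to 60.4%. In the libraries labelled tumor stromal cells, fibroblast markers were at 1.17% to 3.85% of the level in healthy stromal cells, and epithelial markers were at 93.9% and 51.1% of the level in tumor epithelium in replicates 1 and 2 and at 19.9% and 12.1% in replicates 3 and 4. Tumor monocytes had monocyte markers at 31.2% to 49.7% of the level in blood monocytes of the same kind of mice, and epithelial markers at 1.33% to 17.8%. The mitochondrial share of counts was 5.34% to 83.9%. Of 8 tumor-bearing mice named in more than 1 title, 3 had libraries with Xist, a transcript of female cells, both above 5 and below 1 RPKM, so titles were not relied on to pair libraries.

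Levels are given as RPKM, reads per kilobase of transcript as scaled by the authors. Relative to total counts this scale ran from 0.635 to 1.54 over the libraries, so it did not follow total counts alone. Ptgs2 had the highest level of the 10 genes in any group, 131 ± 20.5 RPKM in tumor monocytes and 129 ± 131 RPKM in tumor neutrophils (mean ± SD, n = 4 libraries here and throughout). Tumor neutrophils and tumor monocytes overlapped in Ptgs2, and both lay above the other 8 groups without overlap. With counts scaled by TMM in place of the authors' scaling, the mean in neutrophils was 199 and that in monocytes 131. Hpgd was higher in healthy than in tumor groups of epithelial cells and stromal cells. It was also higher in healthy blood monocytes than in tumor monocytes, groups that differ in site too and were not tested against each other. Its means were 16.3 ± 10.6 RPKM in healthy blood monocytes and 14.5 ± 12.6 RPKM in healthy stromal cells. In healthy epithelium the mean was 10.4 ± 5.50 RPKM. Means were 0.443 to 1.86 RPKM in the 3 corresponding tumor groups and 7.33 RPKM in blood monocytes of tumor-bearing mice. Ptges and Ptgis were highest in healthy stromal cells, Ptgs1 too, whereas Tbxas1 was highest in blood leukocytes, Ptger2 in blood neutrophils and Ptger4 in monocytes. Hpgds stayed under 0.7 RPKM in every library, and Ptger3 exceeded 0.1 RPKM in 3 libraries, all of healthy stromal cells.

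**Figure D1:**
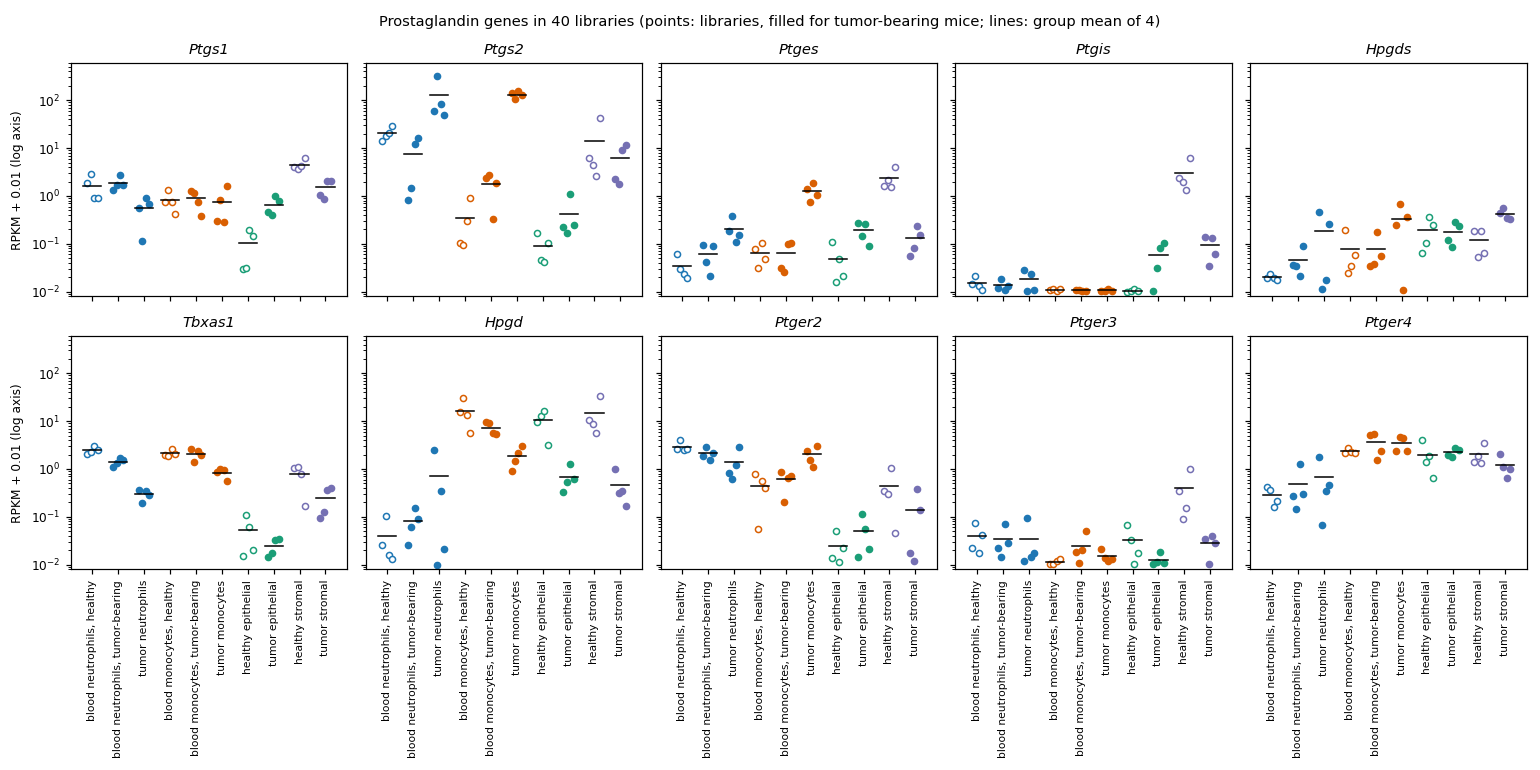
RPKM plus 0.01 on a log axis for each of the 10 genes in the 40 libraries; points are libraries, filled for tumor-bearing and open for healthy mice, and lines are group means of 4. Ptgs2 peaked in tumor neutrophils (129 RPKM) and tumor monocytes (131 RPKM), while Hpgd was under 4 RPKM in every tumor library.

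Neutrophils from tumors were compared with blood neutrophils of tumor-bearing mice to ask how the genes differed between the circulation and the tumor. The inducible cyclooxygenase Ptgs2 was higher in the tumor, whereas the constitutive cyclooxygenase Ptgs1 and the thromboxane synthase Tbxas1 were lower. Of the 10 genes, 7 had enough counts to be tested, 1 rose and 2 fell, and of all 13674 genes tested 16.3% passed (11.9% higher and 4.41% lower in the tumor). To pass, a gene needed an adjusted p under 0.05 (quasi-likelihood test of edgeR, Benjamini-Hochberg) and a log2 fold change beyond 1.5 in either direction. The median log2 fold change was 0.16 over the 7 genes and 0.11 over all genes tested. The study describes its tumor cell libraries as separately derived samples, but the titles and Xist do not settle which mouse each came from, so p-values measure the spread among these libraries. In such bulk samples, fewer cells of a type and less RNA per cell cannot be told apart.

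In the 4 tumor neutrophil libraries, replicates 1 to 4 in order, Ptgs2 was at 58.7, 323, 85.2 and 48.5 RPKM, and in blood neutrophils it was at 0.810, 1.44, 12.4 and 16.1 RPKM. The lowest tumor library was above the highest blood library, and replicate 2 of the tumor stood far above the rest. The rise was 4.40 ± 1.19 on the log2 scale (estimate ± SE, as below), or 21.2-fold (edgeR, adjusted p = 0.0277). It was 2.83 without tumor replicate 2 (edgeR, adjusted p = 0.042), and it no longer passed without blood replicate 1, 2 or 3 (edgeR, adjusted p = 0.0543, 0.0668 and 0.059). DESeq2 gave no adjusted p for Ptgs2 in this comparison and so made no call. The level of 10 genes known to respond to tissue dissociation, such as Fos and Hspa1a, summed to 1231 RPKM in tumor replicate 2, to 500 to 621 RPKM in the other tumor libraries and to 210 to 450 RPKM in blood, and its part in the result was not tested.

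Ptgs1 was at 0.561, 0.106, 0.878 and 0.665 RPKM in tumor neutrophils and at 1.32, 1.68, 2.75 and 1.68 RPKM in blood neutrophils, without overlap. It fell by 1.84 ± 0.57 on the log2 scale (edgeR, adjusted p = 0.0455). This call was lost without any of the blood libraries and without tumor replicate 1 or 4 (edgeR, adjusted p from 0.0612 to 0.115). Platelets, which are rich in Ptgs1 and Tbxas1, had markers summing to 2.40, 23.6, 39.6 and 41.0 RPKM in the blood libraries and to 0.378 to 1.95 RPKM in the tumor libraries; their part in the result was not tested. Tbxas1 fell more firmly. It was at 0.356, 0.188, 0.330 and 0.278 RPKM in the tumor and at 1.10, 1.29, 1.66 and 1.54 RPKM in blood, a decrease of 4.86-fold (log2 fold change -2.28 ± 0.37, edgeR, adjusted p = 0.00226) that passed without any one library. Hpgd was at 2.47 RPKM in tumor replicate 1, the library with the highest level of epithelial markers, and at 0.341 RPKM or less in the other 3 tumor libraries and in blood, and did not pass (log2 fold change 2.93 ± 1.54, edgeR, adjusted p = 0.215). The prostaglandin E synthase Ptges had a log2 fold change of 2.22 ± 0.90 without passing (edgeR, adjusted p = 0.113). It passed in DESeq2 (2.26, adjusted p = 0.0358). With all 40 libraries fitted at once, Ptges (1.99) and Hpgd (2.73) passed (edgeR, adjusted p = 0.0377 and 0.0297). The receptors Ptger2 and Ptger4 had values of -0.63 ± 0.49 and 0.16 ± 0.91 (edgeR, adjusted p = 0.404 and 0.92).

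Compared with blood monocytes of tumor-bearing mice, tumor monocytes had more Ptgs2, Ptges and Ptger2 and less Hpgd. Of 8 genes tested 3 rose and 1 fell, while 11.7% of 15280 genes passed (7.76% higher and 3.89% lower), and the median log2 fold change was 1.10 over the 8 genes and -0.03 over all genes tested. Ptgs2 was at 139, 104, 153 and 129 RPKM in the tumor and at 2.32, 2.75, 0.323 and 1.85 RPKM in blood. The 4 tumor libraries lay close together and far above all blood libraries, a difference of 87.6-fold (log2 fold change 6.45 ± 0.61, edgeR, adjusted p = 7.21e-05).

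The synthase Ptges, which acts on the product of Ptgs2, was at 1.42, 0.752, 1.90 and 1.02 RPKM in tumor monocytes and between 0.0163 and 0.0923 RPKM in blood monocytes. The groups did not overlap, and the rise was 28.3-fold (log2 fold change 4.82 ± 0.71, edgeR, adjusted p = 0.00131). The receptor Ptger2 was at 2.31, 1.56, 1.11 and 3.04 RPKM in the tumor and at 0.853, 0.193, 0.632 and 0.709 RPKM in blood. Again no tumor library reached down to the blood libraries, with a log2 fold change of 2.00 ± 0.48 (edgeR, adjusted p = 0.0172), and the call was lost without tumor replicate 4 (edgeR, adjusted p = 0.0513). Hpgd, which degrades prostaglandin E2, went the other way. Its levels were 0.896, 1.44, 2.13 and 2.96 RPKM in the tumor and 9.36, 8.92, 5.56 and 5.50 RPKM in blood, a decrease of 3.31-fold without overlap (log2 fold change -1.72 ± 0.39, edgeR, adjusted p = 0.0133). Tbxas1 had a log2 fold change of -1.06 ± 0.29, which is inside the fold threshold (edgeR, adjusted p = 0.0298). Ptgs1 (-0.02 ± 0.59), Ptger4 (0.20 ± 0.42) and Hpgds (2.44 ± 1.20) did not pass (edgeR, adjusted p = 0.984, 0.795 and 0.199), although Hpgds passed without tumor replicate 3 (2.86, edgeR, adjusted p = 0.0377). Ptgs2, Ptges and Hpgd passed without any one library. When all 40 libraries were fitted at once, Ptgs2 and Ptges passed and Ptger2 and Hpgd did not (edgeR, adjusted p = 0.134 and 0.176). The sum of the dissociation genes was 253 to 563 RPKM in tumor monocytes and 67.8 to 310 RPKM in blood monocytes, and its part in these results was not tested.

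**Figure D2:**
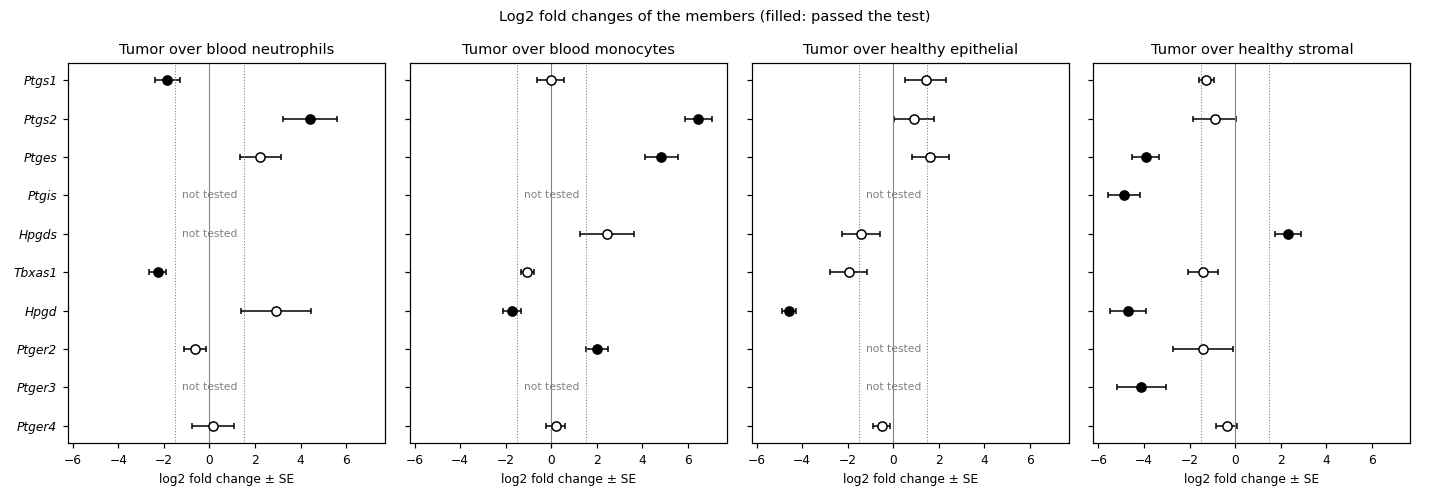
Log2 fold changes ± SE of the 10 genes in 4 comparisons; filled points passed an adjusted p-value under 0.05 and the fold threshold of 1.5 on the log2 scale (dotted lines). Ptgs2 rose in tumor neutrophils (4.40) and tumor monocytes (6.45), and Hpgd fell in tumor monocytes (-1.72), tumor epithelium (-4.56) and tumor stromal cells (-4.69).

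Neutrophils and monocytes were then set against each other in an interaction term over 16 libraries, which compares their blood-to-tumor changes. Of 8 genes tested, Ptger2 passed, as did 3.95% of 17465 genes. From blood to tumor the receptor rose in monocytes, while in neutrophils it was at 0.800, 0.618, 1.21 and 2.81 RPKM in the tumor and at 1.84, 2.88, 1.56 and 2.19 RPKM in blood, which overlap. The difference between the 2 changes was -2.73 ± 0.72 on the log2 scale (edgeR, adjusted p = 0.0415). The call held without tumor neutrophil replicate 2 or 4 or tumor monocyte replicate 3 and was lost without any one of the other 13 libraries, with adjusted p-values from 0.0141 to 0.0936 over the 16 fits (edgeR). It was also lost with all 40 libraries fitted at once (-2.77, edgeR, adjusted p = 0.167), without the filter on low counts (-2.75, edgeR, adjusted p = 0.0691) and, by its size, in limma on log2(RPKM + 1) (-1.36, adjusted p = 0.0434). For Ptgs2 the difference was -2.17 ± 1.26 and for Ptges -2.74 ± 1.12, neither of which passed (edgeR, adjusted p = 0.346 and 0.169). Tbxas1 and Hpgd had differences of -1.35 ± 0.44 and 4.5 ± 1.56 (edgeR, adjusted p = 0.0853 and 0.107). Without tumor neutrophil replicate 2, Ptges (-3.69) and Hpgd (4.92) also passed (edgeR, adjusted p = 0.037 and 0.0294). Hpgd had 235, 0, 37 and 1 counts in tumor neutrophil replicates 1 to 4, and replicate 1 was the library rich in epithelial markers. Its difference was 2.3 to 5.08 over the 16 fits without 1 library (edgeR, adjusted p from 0.0294 to 0.364).

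In blood, cells of tumor-bearing mice were compared with cells of healthy mice. None of the 5 genes tested in neutrophils passed, where 4.01% of 13360 genes did, and none of the 8 genes tested in monocytes passed, where 0.209% of 15313 genes did. At an unadjusted p-value under 0.05 in edgeR's test there was 1 gene in neutrophils and there were 2 in monocytes, and limma-voom gave 2 and 1. DESeq2 called no gene in neutrophils and 1 in monocytes, which was Ptgs2 (log2 fold change 2.45, adjusted p = 0.0434). Ptgs2 in blood neutrophils was at 14, 17.7, 20.6 and 29.2 RPKM in healthy mice, so that the highest healthy library was above the highest of tumor-bearing mice (16.1 RPKM) and the lowest was within their range. The log2 fold change was -1.33 ± 0.82 (edgeR, adjusted p = 0.385), and the wide range in tumor-bearing mice came from a pair of libraries at 0.810 and 1.44 RPKM and a pair at 12.4 and 16.1 RPKM. The sum of the dissociation genes was 281 and 210 RPKM in the first pair and 450 and 408 RPKM in the second, and its part in that split was not tested. Tbxas1 was at 1.10 to 1.66 RPKM in blood neutrophils of tumor-bearing mice and at 2.03 to 3.05 RPKM in those of healthy mice, with no overlap and a log2 fold change of -0.79 ± 0.25 (edgeR, adjusted p = 0.0936). In blood monocytes, Ptgs2 was at 0.0941, 0.0863, 0.291 and 0.895 RPKM in healthy mice, which overlapped with tumor-bearing mice (log2 fold change 2.44 ± 0.85, edgeR, adjusted p = 0.366). Hpgd in those cells had a log2 fold change of -1.06 ± 0.44 (edgeR, adjusted p = 0.475).

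Tumor epithelium was compared with healthy colon epithelium. Hpgd alone passed among 7 genes tested, where 15.4% of 16085 genes passed (7.52% higher and 7.88% lower). It was at 9.58, 13, 15.9 and 3.13 RPKM in healthy epithelium and at 0.315, 0.527, 1.28 and 0.596 RPKM in tumor epithelium. The lowest healthy library, in which mitochondrial genes took 83.9% of counts, was above every tumor library. The decrease was 23.6-fold (log2 fold change -4.56 ± 0.31, edgeR, adjusted p = 1.47e-05), and it passed without any one library, with log2 fold changes of -4.85 to -4.37. Both cyclooxygenases were at 1.07 RPKM or less in every epithelial library. Ptgs2 was at 0.211, 0.158, 1.07 and 0.233 RPKM in tumor and at 0.161, 0.0368, 0.0316 and 0.0962 RPKM in healthy epithelium (log2 fold change 0.92 ± 0.88, edgeR, adjusted p = 0.51). Ptgs1 was at 0.390 to 1.00 RPKM in tumor and at 0.0203 to 0.186 RPKM in healthy epithelium, which did not overlap on this scale, and had a log2 fold change of 1.42 ± 0.92 after TMM normalization (edgeR, adjusted p = 0.309). It passed in limma-voom (adjusted p = 0.0133), and in edgeR without healthy replicate 4 (log2 fold change 2.99, adjusted p = 0.0201). Tbxas1, at 0.101 RPKM or less in every epithelial library, passed without healthy replicate 1 (log2 fold change -2.33, edgeR, adjusted p = 0.0346). The receptor Ptger4 was at 1.79 to 2.69 RPKM in tumor epithelium and at 0.630 to 3.95 RPKM in healthy epithelium (log2 fold change -0.50 ± 0.38, edgeR, adjusted p = 0.388), and Ptger2 and Ptger3 had too few counts to be tested there.

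Libraries labelled tumor stromal cells were compared with healthy colon stromal cells. Hpgd, Ptgis, Ptges and Ptger3 were lower in the tumor and Hpgds was higher. Thus 1 of the 10 genes rose and 4 fell, where 8.40% of 19081 genes passed (3.39% higher and 5.01% lower), and the median log2 fold change was -1.39 over the 10 genes and 0.03 over all genes. The composition of these libraries moved with the comparison. The 6 fibroblast markers summed to 5.97 to 24 RPKM in the tumor and 355 to 2010 RPKM in healthy tissue, and the 5 smooth muscle markers to 3.11 to 5.34 and 19.0 to 97.9 RPKM. Endothelial markers were at 4.57 and 3.87 RPKM in tumor replicates 1 and 2 and at 111 and 125 RPKM in replicates 3 and 4, against 25.1 to 120 RPKM in healthy tissue, and the dissociation genes summed to 443 to 642 RPKM in the tumor and 1033 to 2327 RPKM in healthy tissue. The part of these cells and genes in the stromal results was not tested.

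The prostacyclin synthase Ptgis was at 2.36, 1.99, 1.32 and 6.31 RPKM in healthy stromal cells and at 0.131, 0.0248, 0.125 and 0.0521 RPKM in the tumor. All tumor libraries were below all healthy libraries (log2 fold change -4.87 ± 0.71, edgeR, adjusted p = 0.00681). Ptges was at 1.60, 2.13, 1.56 and 4.04 RPKM in healthy tissue and at 0.0469, 0.0716, 0.231 and 0.144 RPKM in the tumor, again without overlap (log2 fold change -3.93 ± 0.58, edgeR, adjusted p = 0.00684). Hpgd was at 10.3, 8.84, 5.61 and 33.2 RPKM in healthy tissue and at 0.974, 0.3, 0.336 and 0.162 RPKM in the tumor. This was a decrease of 25.8-fold (log2 fold change -4.69 ± 0.79, edgeR, adjusted p = 0.0102), close in size to that in epithelium. Healthy replicate 4 had the highest level of all 3 genes and of fibroblast markers; without it the log2 fold changes were -4.17 for Ptgis and -3.84 for Hpgd (edgeR, adjusted p = 0.00763 and 0.0115). Without tumor replicate 1 that of Hpgd was -5.38 (edgeR, adjusted p = 0.0144). Ptgis, Ptges and Hpgd (-5.57) also passed when tumor replicates 1 and 2, the ones richest in epithelial markers, were both left out, an alternative chosen after seeing the data.

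**Figure D3:**
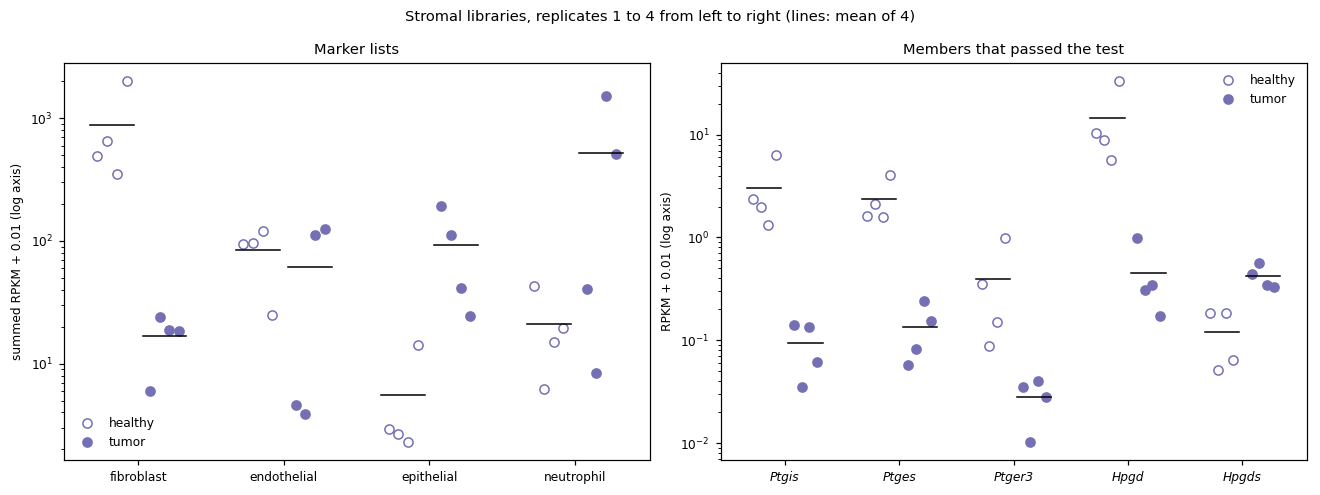
Summed RPKM of 4 marker lists (left) and RPKM of the 5 genes that passed (right), each plus 0.01 on a log axis, in the 4 healthy (open) and 4 tumor (filled) stromal libraries; lines are means. Fibroblast markers were at 355 to 2010 RPKM in healthy and 5.97 to 24 RPKM in tumor libraries, and Ptgis, Ptges and Hpgd were lower in all tumor libraries.

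The other 2 calls in stromal cells were weaker. Ptger3 was at 0.343, 0.0785, 0.140 and 0.987 RPKM in healthy tissue and at 0.0304 RPKM or less in the tumor (log2 fold change -4.11 ± 1.08, edgeR, adjusted p = 0.0467). Hpgds, known from mast cells and other hematopoietic cells, was at 0.433, 0.561, 0.336 and 0.321 RPKM in the tumor and at 0.173, 0.0419, 0.174 and 0.0539 RPKM in healthy tissue (log2 fold change 2.33 ± 0.57, edgeR, adjusted p = 0.036). Neither gene's libraries overlapped. The call of Ptger3 was lost without any one of the 8 libraries (edgeR, adjusted p from 0.0563 to 0.0924), and its log2 fold change was -3 without healthy replicate 4. That of Hpgds was lost without any one library other than tumor replicate 4 (edgeR, adjusted p from 0.0536 to 0.095). Both were lost without tumor replicates 1 and 2 (edgeR, adjusted p = 0.12 and 0.158). Mast cell markers summed to 0.948, 0.182, 15.2 and 8.54 RPKM in the tumor and to 1.33, 0.102, 13.1 and 0.364 RPKM in healthy tissue, and their part was not tested. Ptgs1 was at 3.94, 3.58, 4.29 and 6.29 RPKM in healthy and at 1.06, 0.860, 2.03 and 2.05 RPKM in tumor libraries, with a log2 fold change of -1.27 ± 0.33, inside the fold threshold (edgeR, adjusted p = 0.0446). Ptgs2 overlapped, at 6.21, 4.5, 2.60 and 42.4 RPKM in healthy and 2.25, 1.80, 9.10 and 11.6 RPKM in tumor libraries (log2 fold change -0.90 ± 0.95, edgeR, adjusted p = 0.601), and the sign turned without healthy replicate 4 (0.80, edgeR, adjusted p = 0.482). In the tumor the higher pair, replicates 3 and 4, had neutrophil markers summing to 1508 and 511 RPKM, against 40.9 and 8.46 RPKM in replicates 1 and 2, and their part was not tested. The receptor Ptger4 was at 1.31 to 3.45 RPKM in healthy and at 0.649 to 2.07 RPKM in tumor libraries (log2 fold change -0.37 ± 0.47, edgeR, adjusted p = 0.669).

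An interaction over 16 libraries asked whether the change from healthy to tumor differed between epithelial and stromal cells, and 3 of 10 genes passed, where 14.1% of 20901 genes passed. Ptges differed by 5.55 ± 1.01 on the log2 scale (edgeR, adjusted p = 0.00193), and by 6.58 without healthy epithelial replicate 1. In epithelium it was at 0.262, 0.139, 0.249 and 0.0812 RPKM in the tumor and at 0.0992, 0.00609, 0.0377 and 0.0113 RPKM in healthy tissue, an increase that did not pass by itself (log2 fold change 1.62 ± 0.81, edgeR, adjusted p = 0.187). Ptgis also passed (edgeR, adjusted p = 0.00154), but all 4 healthy epithelial libraries had 0 counts, so its fitted difference of 10.82 is no measure of size. In tumor epithelium Ptgis had 0, 3, 15 and 23 counts in replicates 1 to 4, so that its presence there rested on replicates 3 and 4. Hpgds passed as well (difference -3.71 ± 1.06, edgeR, adjusted p = 0.0276), and lost the call without tumor epithelial replicate 1 or 2, healthy epithelial replicate 4, tumor stromal replicate 2 or healthy stromal replicate 2 or 4, with adjusted p-values up to 0.0697 (edgeR). Its difference was -2.48 without healthy epithelial replicate 4. Hpgds was also lost in the fit of 40 libraries (edgeR, adjusted p = 0.105), in limma-voom (adjusted p = 0.0688), with a replicate block (edgeR, adjusted p = 0.0573) and without tumor stromal replicates 1 and 2 (edgeR, adjusted p = 0.0951). Ptgs1, which did not pass (2.76, edgeR, adjusted p = 0.0821), passed without healthy epithelial replicate 4 (4.21, edgeR, adjusted p = 0.00283), and also with 40 libraries (2.77), limma-voom (4.19), DESeq2 (2.67), limma on log2(RPKM + 1) (1.74) or log2(RPKM + 0.1) (3.59) and a replicate block (3.42). For Hpgd the difference was 0.15 ± 0.78 (edgeR, adjusted p = 0.933), so the decreases in epithelium and stromal cells were not told apart by this test.

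Within tumors, the 4 cell types were compared in 1 fit of 16 libraries. Ptgs2 was higher in neutrophils than in epithelium (log2 fold change 9.53 ± 1.06) and than in stromal cells (5.55 ± 0.89), and higher in monocytes than in epithelium (8.67 ± 1.02) and than in stromal cells (4.70 ± 0.86), with edgeR adjusted p-values of 1.3e-05, 0.00059, 3.52e-05 and 0.00182. Between neutrophils and monocytes the difference in Ptgs2 was 0.86 ± 0.74 and did not pass (edgeR, adjusted p = 0.444), and it was -0.82 without neutrophil replicate 2 (edgeR, adjusted p = 0.393). Without neutrophil replicate 2 the differences of neutrophils were 7.77 against epithelium and 3.84 against stromal cells. Without epithelial replicate 3 the differences from epithelium were 10.28 in neutrophils and 9.42 in monocytes, and without stromal replicates 1 and 2 those from stromal cells were 4.66 and 3.96, all of which passed. The percentages of all genes called in these comparisons were 21.6% for neutrophils against epithelium, 16.1% for neutrophils against stromal cells, 29.0% for monocytes against epithelium, 20.3% for monocytes against stromal cells, 13.8% for neutrophils against monocytes and 4.09% for epithelium against stromal cells. Of the 9 genes tested in each, the calls numbered 3, 2, 5, 6, 1 and 2 in that order.

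The receptor Ptger2 was also higher in tumor neutrophils and monocytes than in tumor epithelium and stromal cells. It was 5.87 ± 1.30 higher on the log2 scale in neutrophils and 5.76 ± 1.29 higher in monocytes than in epithelium (edgeR, adjusted p = 0.00302 and 0.0033). Against stromal cells the differences were 4.37 ± 1.20 and 4.26 ± 1.19 (edgeR, adjusted p = 0.0177 and 0.0176). Without tumor stromal replicates 1 and 2 they no longer passed (edgeR, adjusted p = 0.0777 and 0.061), and the difference of neutrophils did not pass without neutrophil replicate 4 either (3.73, edgeR, adjusted p = 0.0533). Without stromal replicate 3 the differences from stromal cells were 5.84 and 5.73, without epithelial replicate 2 those from epithelium were 7.10 and 7, and without neutrophil replicate 4 that of neutrophils from epithelium was 5.22. Ptger4 was lower in neutrophils than in monocytes, with libraries at 1.77, 0.0561, 0.342 and 0.457 RPKM against 2.32, 4.70, 4.44 and 2.32 RPKM. These did not overlap, with the highest neutrophil library being the one rich in epithelial markers, and the difference was -2.09 ± 0.59 on the log2 scale (edgeR, adjusted p = 0.0265) and -2.87 without that library. It was lost without neutrophil replicate 3 or 4 or monocyte replicate 2 or 3 (edgeR, adjusted p up to 0.0697). In monocytes Ptger4 was 1.75 ± 0.58 above stromal cells (edgeR, adjusted p = 0.0398), a call that was lost without monocyte replicate 2 or 3 or stromal replicate 2, 3 or 4 (edgeR, adjusted p up to 0.104), and without stromal replicates 1 and 2 together (2.35, edgeR, adjusted p = 0.0661). Without neutrophil replicate 1, Ptger4 was also called lower in neutrophils than in epithelium (-2.03, edgeR, adjusted p = 0.0107). Within every blood neutrophil library Ptger2 exceeded Ptger4 in RPKM, and within every blood monocyte and epithelial library Ptger4 exceeded Ptger2; in tumor neutrophils Ptger2 was the higher in 3 of 4 libraries and in tumor monocytes in 1 of 4.

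Within tumors Ptges was higher in monocytes than in epithelium and stromal cells. It was 3.01 ± 0.71 above epithelium and 3.64 ± 0.73 above stromal cells on the log2 scale (edgeR, adjusted p = 0.00437 and 0.00303). Its difference between neutrophils and monocytes was -1.93 ± 0.68 (edgeR, adjusted p = 0.0629), and -3.06 without neutrophil replicate 2 (edgeR, adjusted p = 0.00677). Without neutrophil replicate 1, Ptges passed as higher in neutrophils than in stromal cells (1.94, edgeR, adjusted p = 0.0478). Tbxas1 was higher in monocytes (6.07 ± 0.68) and neutrophils (5.14 ± 0.65) than in epithelium (edgeR, adjusted p = 2.08e-05 and 2.64e-05). Against stromal cells the difference in monocytes was 2.10 ± 0.56 (edgeR, adjusted p = 0.0136), and 1.47 without tumor stromal replicates 1 and 2 (edgeR, adjusted p = 0.157). Epithelium had less Ptgs2 (-3.97 ± 0.83) and less Tbxas1 (-3.96 ± 0.62) than stromal cells (edgeR, adjusted p = 0.0125 and 0.00414), and the call of Ptgs2 was lost without tumor epithelial replicate 1, 2 or 4 (edgeR, adjusted p = 0.0551, 0.0537 and 0.0567). It was -4.71 without epithelial replicate 3 and -4.62 without stromal replicates 1 and 2. Ptgis had 0 counts in all tumor monocyte libraries and passed as lower than in epithelium and stromal cells (edgeR, adjusted p = 0.0121 and 0.00912), of which stromal cells, with 18, 4, 18 and 7 counts, were at least 4.19-fold above a floor of 3 counts in each monocyte library. In epithelium most counts were those of replicates 3 and 4.

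The other genes of the pathway were read from a list of 24. It held phospholipases that release arachidonic acid, further terminal synthases, enzymes and transporters that remove prostaglandins, and the remaining receptors. From blood to tumor, 3 of 13 tested rose and 1 fell in neutrophils, and 1 of 14 rose and 2 fell in monocytes. From healthy to tumor tissue, 4 of 19 rose and 7 fell in epithelium, and 3 of 19 rose and 3 fell in stromal cells. In blood of tumor-bearing against healthy mice none of 11 in neutrophils and none of 13 in monocytes passed in edgeR's test. The shares of all genes that passed are given above for each comparison. Calls among these 24 genes were not checked by leaving out libraries or by alternative processing. Their dependence on single libraries or on the processing was therefore not tested.

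**Figure D4:**
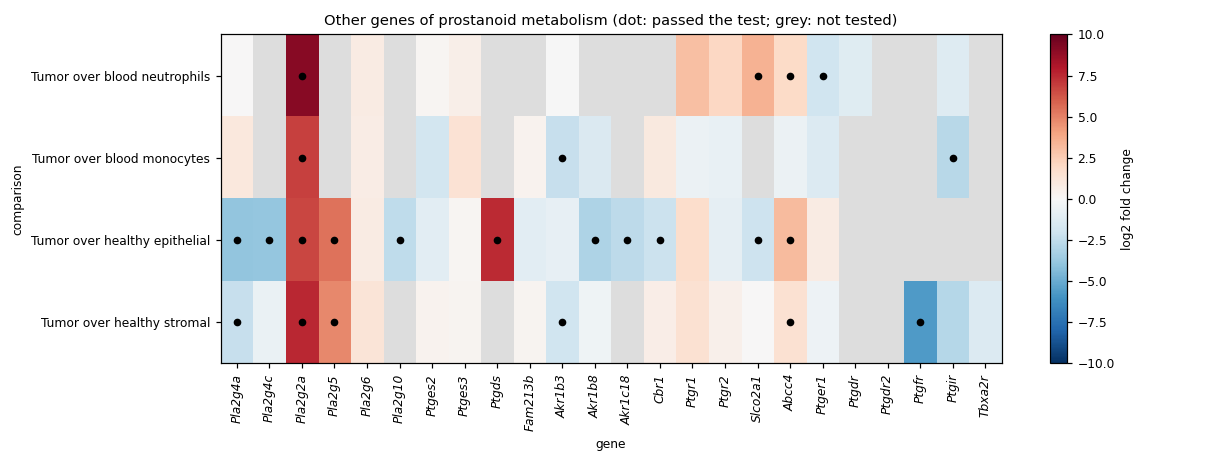
Log2 fold change (color) of 24 other genes of prostanoid metabolism (columns) in 4 comparisons (rows); a dot marks genes that passed and grey those not tested. Pla2g2a passed as higher in all 4 comparisons, although its colors against blood, where it had at most 2 counts, are no measure of size, and neither is that of Ptgds in epithelium, and the cytosolic phospholipase Pla2g4a fell in epithelium (-3.93) and stromal cells (-2.30).

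Pla2g2a, a secreted phospholipase made by intestinal epithelium, was at 38.3 to 63.6 RPKM in tumor epithelium and at 0.000108 to 1.19 RPKM in healthy epithelium (log2 fold change 6.65 ± 1.06, edgeR, adjusted p = 0.0013). It was also called in stromal cells (7.52 ± 1.44, edgeR, adjusted p = 0.0158) and, against blood, in neutrophils and monocytes from tumors (edgeR, adjusted p = 0.000945 and 0.00126). In blood neutrophils and monocytes it had at most 2 counts in any library, so that tumor neutrophils (2.39 to 15.4 RPKM) were at least 126-fold and tumor monocytes (0.590 to 2.49 RPKM) at least 28.5-fold above a floor of 3 counts in each blood library, bounds that take the place of a fitted size. These tumor libraries held epithelial markers at the percentages given above, and their part was not tested. In the comparisons with healthy tissue, strain and tumor cannot be told apart. The related Pla2g5 rose in epithelium (5.40 ± 0.66) and stromal cells (4.83 ± 1.13), while Pla2g4a, the calcium-dependent enzyme that commonly feeds the cyclooxygenases, fell in both (-3.93 ± 0.56 and -2.30 ± 0.32; edgeR, adjusted p = 0.00068 and 0.00574).

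Among transporters, the exporter Abcc4 rose in tumor epithelium, from 0.105 to 1.51 RPKM in healthy libraries to 10.1 to 13.1 RPKM in tumor libraries (3.16 ± 0.36, edgeR, adjusted p = 0.000183). It also rose in tumor neutrophils (1.89 ± 0.45) and tumor stromal cells (1.52 ± 0.32; edgeR, adjusted p = 0.0165 and 0.0231). The uptake carrier Slco2a1, which delivers prostaglandins to Hpgd, fell in tumor epithelium (-2.07 ± 0.37, edgeR, adjusted p = 0.00269), and rose in tumor neutrophils (3.44 ± 0.80, edgeR, adjusted p = 0.014). Tumor neutrophil and tumor stromal libraries held epithelial markers at the percentages given above, and their part in these changes was not tested. The prostaglandin D synthase Ptgds had 0 counts in all healthy epithelial libraries and a mean of 0.214 RPKM in the tumor, at least 7.57-fold above a floor of 3 counts in each. The remaining epithelial calls were decreases of Pla2g4c, Pla2g10, Akr1b8, Akr1c18 and Cbr1, by 2.13 to 3.89 on the log2 scale. The aldose reductase Akr1b3 fell in tumor monocytes (-2.28 ± 0.63) and tumor stromal cells (-1.96 ± 0.40; edgeR, adjusted p = 0.0305 and 0.0184). Among receptors, Ptger1 fell in tumor neutrophils (-1.97 ± 0.48, edgeR, adjusted p = 0.017), the prostacyclin receptor Ptgir fell in tumor monocytes (-2.78 ± 0.80, edgeR, adjusted p = 0.0377), and the prostaglandin F receptor Ptgfr fell in tumor stromal cells (-5.66 ± 1.17, edgeR, adjusted p = 0.0206).

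The genes whose level was most like that of each member over the 40 libraries were found by Pearson correlation of log2(RPKM + 1) among 8241 genes, given here as a description. Libraries of a group share a cell type, and the coefficients follow the 10 groups. For Ptgs2 these were Gm13033 (0.958), Ccrl2 (0.918) and Pde4b (0.906), and for Ptges Pdpn (0.906), Ccl7 (0.867) and Htra3 (0.847). Ptgis was most like Serpinf1 (0.994), Tnxb (0.993) and Col14a1 (0.991), and Ptger3 most like Sfrp4 (0.952), Has1 (0.940) and Mfap5 (0.930). For Hpgd they were Stxbp6 (0.900), Gstm2-ps1 (0.884) and Gstm1 (0.881), for Tbxas1 Rasa3 (0.940), Pik3r6 (0.928) and St8sia4 (0.912), and for Ptger2 Tnfsf14 (0.898), Mir6953 (0.883) and Runx2os2 (0.876). Ptgs1 was most like Ing1 (0.846), Peg13 (0.837) and Timp2 (0.83), Ptger4 most like Snx5 (0.867), Psmb6-ps (0.863) and Psmb6-ps2 (0.862), and Hpgds most like Bex3 (0.677), AA474408 (0.657) and Orc6 (0.638).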

How the data were processed

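Total RNA of 40 sorted mouse cell samples, 4 in each of 10 groups, was turned into amplified double-stranded cDNA and sequenced by the authors, and reads were aligned with Bowtie2 to mm10. The deposited tables hold expected counts per gene, most of them not whole numbers, and RPKM values scaled by the authors. Total counts were 10717873 to 38002939 per library, which bounds the precision for low genes, and 0 columns of the tables were unmapped. Groups came from the labels. The members and gene lists were chosen with earlier results of these data known.

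Counts were rounded, filtered with filterByExpr, scaled by TMM and tested in R 4.3.3 with edgeR 4.0.16 (glmQLFit, robust). Benjamini-Hochberg adjustment was over all genes tested, with thresholds of 0.05 and an absolute log2 fold change of 1.5. The fit was checked on simulated data with a fixed spread, in which only well-counted genes were changed. That check does not cover genes with few counts or uneven libraries. The libraries of each comparison were fitted, or all 16 for an interaction or for tumor cell types. Alternatives were limma 3.58.1 (voom, and log2(RPKM + 1) or log2(RPKM + 0.1)), DESeq2 1.42.0, RLE scaling, no filter, 1 fit of 40 libraries, mitochondrial genes left out, blocks for replicate number or titled animal, and leaving out libraries. The text names the 10 members, those of 24 other prostanoid genes that passed, the 3 genes most correlated with each member and marker lists.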

Additional observations from a re-analysis of the deposited data

Results flagged for a closer look

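Of 91 levels of a gene in a group of 4 libraries, 11 had a highest library set apart from the others. In these the ratio of gap to range was beyond Dixon's critical ratio. Chance passes that ratio in about 1 in 20 groups when values are normally distributed. RPKM values were not shown to be so distributed, so the 11 cannot be weighed against chance and are given as a description. Ptgs2 was at 323 RPKM in tumor neutrophil replicate 2, at 42.4 RPKM in healthy stromal replicate 4 and, in tumor epithelium, at 1.07 RPKM in replicate 3. Hpgd was at 2.47 RPKM in tumor neutrophil replicate 1, at 33.2 RPKM in healthy stromal replicate 4 and at 0.0957 RPKM in healthy blood neutrophil replicate 2. Ptger3 was at 0.0859 RPKM in tumor neutrophil replicate 2 and at 0.00843 RPKM in tumor epithelial replicate 3. Some of these levels rest on few counts. Hpgd in healthy blood neutrophil replicate 2 had 15 counts, against at most 1 in the other libraries of that group. Ptger3 had 29 counts in tumor neutrophil replicate 2, against at most 3, and 4 in tumor epithelial replicate 3, against at most 1. Ptger2 was at 3.97 RPKM in healthy blood neutrophil replicate 2, Ptger4 at 1.25 RPKM in replicate 3 of blood neutrophils of tumor-bearing mice, and Hpgds at 0.168 RPKM in replicate 3 of blood monocytes of tumor-bearing mice.

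The change from healthy to tumor tissue differed between epithelial and stromal cells by 5.55 on the log2 scale for Ptges, by -3.71 for Hpgds and by a fitted 10.82 for Ptgis, whose healthy epithelial libraries were at 0 counts (edgeR interaction test). For Ptger2, neutrophils and monocytes differed by -2.73 in their blood-to-tumor change (edgeR interaction test).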

How the results depend on the processing

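Over all alternatives, 1912 of 2168 log2 fold changes of the 10 genes kept their direction and side of the thresholds, 113 no longer passed, 38 newly passed and 105 changed sign, in 30 gene and comparison pairs. Of those 105, 0 belonged to a reported call and 0 passed under the alternative, the lowest adjusted p being 0.176. DESeq2 gave no adjusted p for Ptgs2 in tumor against blood neutrophils or for Ptges in blood monocytes. Neither was counted among the 2168. Causes were not tested. Low levels, such as those of Hpgds and Ptger3, are limited by depth. From blood to tumor, the 3 calls in neutrophils became 5 in 1 fit of all 40 libraries and 1 on log2(RPKM + 1), and the 4 in monocytes became 2 in each. Calls over all genes moved as well, from 2229 of 13674 genes to 5995 of 22122 and 716 of 10109 in neutrophils and from 1781 of 15280 to 2803 of 22122 and 528 of 11905 in monocytes. In epithelium, 1 call became 3 in the fit of 40 libraries and 2 with voom or log2(RPKM + 0.1), against 2476 calls over all genes that became 2576, 2821 and 2014. In stromal cells, 5 calls became 3 without the filter, on log2(RPKM + 1) or without tumor stromal replicates 1 and 2, against 1602 over all genes that became 1625, 558 and 1192. In blood monocytes, 0 became 1 with DESeq2, against 32 over all genes that became 261. The interaction of neutrophils and monocytes went from 1 to 2 with DESeq2 or log2(RPKM + 0.1) and 0 without the filter. Over all genes, 690 calls became 1909, 640 and 497. The interaction stayed at 1 in the fit of 40 libraries and on log2(RPKM + 1), with Hpgd (4.47 and 2.02) in place of Ptger2. Over all genes these gave 1994 and 328 calls. Most Hpgd counts in tumor neutrophils were those of replicate 1, the library rich in epithelial markers. Within tumors on log2(RPKM + 1), neutrophils against epithelium and against stromal cells, and monocytes against both, gave 1 each, and neutrophils against monocytes and epithelium against stromal cells gave 0. Over all genes these gave 1702, 1156, 1644, 1160, 764 and 97 calls in that order, against 4102, 3067, 5526, 3864, 2629 and 779 as reported. Neutrophils against monocytes went from 1 to 2 with 40 libraries or DESeq2 and 3 with voom or log2(RPKM + 0.1). Calls over all genes became 4176, 4229, 2359 and 2538. Epithelium against stromal cells went from 2 to 1 with voom or log2(RPKM + 0.1), while calls over all genes became 169 and 437. Without tumor stromal replicates 1 and 2, neutrophils against stromal cells gave 1 and monocytes against stromal cells 3, where 2223 and 2581 of all genes were called.

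Leaving out 1 library gave 1 to 3 calls in neutrophils and 3 to 5 in monocytes from blood to tumor, 1 to 2 in epithelium, 3 to 4 in stromal cells and 0 to 3 and 2 to 3 in the myeloid and tissue interactions. Over all genes the calls were 1638 to 3624, 1509 to 1848, 2196 to 2801, 827 to 1761, 346 to 1327 and 2393 to 3046 in the same order. Leaving out 1 library also gave 0 to 2 for tumor neutrophils against monocytes, 3 to 4 against epithelium and 1 to 3 against stromal cells, 4 to 5 and 5 to 6 for tumor monocytes against epithelium and stromal cells, and 1 to 2 for epithelium against stromal cells. Over all genes these were 1629 to 3261, 3216 to 6875, 2387 to 5550, 4572 to 5346, 3128 to 3874 and 285 to 1204.

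Replicate numbers were not shown to pair libraries: correlations of same-numbered deviations were -0.247 to 0.307 over 22122 genes. With the replicate block, 1 call was left in neutrophils and 2 in stromal cells, while calls over all genes fell from 2229 to 1407 and from 1602 to 462. In stromal cells Hpgd had an adjusted p of 0.0602 (edgeR); Ptgs2 in neutrophils had 0.0628. With the animal in the title as a block, 0 calls were left for tumor neutrophils against monocytes and for either against stromal cells, while calls over all genes were 901, 0 and 333 of 19026 (edgeR), against 2629, 3067 and 3864 without the block. Where 0 were called, 2729 genes had an unadjusted p under 0.05.

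The changes of sign, none of a call, are given with the reported log2 fold change in parentheses. In tumor against blood neutrophils, Ptger4 (0.16) was -0.03 with 40 libraries and -0.83 to 1.24 without a library. In tumor against blood monocytes, Ptger4 (0.20) was -0.00 on log2(RPKM + 1) and -0.07 to 0.50 without a library. Ptgs1 (-0.02) was -0.67 to 0.23 without a library. In tumor against healthy epithelium, Ptger4 (-0.50) was 0.23 on log2(RPKM + 1) and 0.42 on log2(RPKM + 0.1). In tumor against healthy stromal cells, Ptgs2 (-0.90) was -1.42 to 0.80 without a library. Ptger4 (-0.37) was -0.73 to 0.05 without a library. In blood neutrophils of tumor-bearing against healthy mice, Ptger4 (0.91) was -0.25 to 1.25 without a library. Ptgs1 (0.30) was -0.01 to 0.59 without a library. In blood monocytes of tumor-bearing against healthy mice, Ptges (0.11) was -0.27 with voom, -0.08 with the replicate block and -0.28 to 0.45 without a library. Tbxas1 (0.07) was -0.03 on log2(RPKM + 1), -0.04 on log2(RPKM + 0.1) and -0.02 to 0.21 without a library. Hpgds (0.13) was -0.87 to 1.18 without a library. In the myeloid interaction, Ptger4 (-0.18) was 0.11 on log2(RPKM + 1), 0.14 on log2(RPKM + 0.1) and -1.08 to 0.97 without a library. Hpgds (-0.50) was -1.5 to 0.27 without a library. In the tissue interaction, Ptger4 (-0.12) was 0.17 with voom, 0.66 on log2(RPKM + 1), 1.11 on log2(RPKM + 0.1), 0.10 with the replicate block, 0.54 without stromal replicates 1 and 2 and -0.53 to 0.40 without a library. Ptger3 (0.49) was -0.71 to 1.45 without a library. Tbxas1 (-0.55) was 0.45 on log2(RPKM + 1), 1.02 on log2(RPKM + 0.1) and -0.93 to 0.05 without a library. Hpgd (0.15) was -0.69 to 0.85 without a library. In tumor neutrophils against monocytes, Ptgs2 (0.86) was -0.46 on log2(RPKM + 1), -0.46 on log2(RPKM + 0.1), -0.05 with the animal block and -0.82 to 1.17 without a library. Ptger2 (0.11) was -0.20 with 40 libraries, -0.13 with voom, -0.15 without the filter, -0.12 without mitochondrial genes, -0.39 on log2(RPKM + 1), -0.66 on log2(RPKM + 0.1), -0.31 with the replicate block, -0.33 with the animal block and -0.54 to 0.38 without a library. Ptgs1 (0.20) was -0.11 with 40 libraries, -0.06 without the filter, -0.03 without mitochondrial genes, -0.13 on log2(RPKM + 1), -0.29 on log2(RPKM + 0.1), -0.13 with the animal block and -0.21 to 0.85 without a library. Hpgds (-0.50) was -1.20 to 0.16 without a library. In tumor neutrophils against epithelium, Ptges (1.09) was -0.08 to 1.44 without a library. Ptgs1 (0.61) was -0.10 on log2(RPKM + 1) and -0.33 on log2(RPKM + 0.1). Hpgds (0.66) was -1.0 with voom, -0.47 with the animal block and -0.05 to 1.04 without a library. Hpgd (0.51) was -1.91 with voom, -0.16 on log2(RPKM + 1), -1.08 on log2(RPKM + 0.1), -0.62 with the replicate block, -0.63 with the animal block and -1.5 to 0.91 without a library. In tumor neutrophils against stromal cells, Ptger4 (-0.33) was 0.03 without stromal replicates 1 and 2. Hpgd (1.09) was -1.10 with voom, -0.49 on log2(RPKM + 0.1) and -0.91 to 1.74 without a library. In tumor monocytes against epithelium, Ptgs1 (0.41) was -0.04 on log2(RPKM + 0.1) and -0.24 to 0.66 without a library. Hpgds (1.16) was -0.27 with voom. In tumor monocytes against stromal cells, Hpgds (-0.20) was 0.18 without stromal replicates 1 and 2 and -0.85 to 0.22 without a library.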
